A study of Mus musculus with 8 samples.

Results

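Peritoneal macrophages from mice labelled Zc3h12a KO were followed through 4 h of exposure to lipopolysaccharide (LPS), the bacterial cell wall component that TLR4 senses. The course consists of 4 arrays, the libraries titled as Zc3h12a knockout macrophages at 0, 1, 2 and 4 h, out of 8 arrays in all. The other 4 are the same times in macrophages labelled wild-type and serve here only for comparison. Macrophages of both genotypes were drawn into the peritoneal cavity by thioglycollate, an irritant, and received LPS at 100 ng/ml. The 0 h array is the unstimulated state. The series holds no array without LPS at 1, 2 or 4 h, so effects of LPS and of time in culture cannot be told apart. Each time is 1 Affymetrix array, so a value at a time has no replicate, no error and no test. The labels give no strain background, age or sex, do not describe the targeted allele and do not say whether cells of several mice were pooled.

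Zc3h12a encodes Regnase-1, an endoribonuclease that degrades inflammatory mRNAs such as Il6 and is itself induced by LPS. LPS acts on macrophages in waves. Immediate early transcription factors and NF-kB targets such as Tnf and Nfkbia need no new protein, whereas type I interferon made in the first wave drives a later wave of antiviral genes. Many mRNAs of the first wave are short-lived, so their decay shapes how long they last.

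The stretches of promoter shown here illustrate the courses described below: genes that rose at 1 h and stayed up, genes that rose for a short time, and genes of the later interferon wave. Windows come from RefSeq promoters of build GRCm38.p6 and lie upstream of the start. The search covered 250 bases before each start, on both strands. Capitals mark matches to the NF-kB site consensus, to the core of the interferon-stimulated response element (ISRE) or to the serum response element core. A match is a description of letters and not a bound site.
Il6, NF-kB match, chr5:30013045-30013104, plus strand: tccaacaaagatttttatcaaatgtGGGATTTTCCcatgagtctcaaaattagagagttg
Cxcl2, 2 overlapping NF-kB matches, chr5:90903777-90903837, plus strand: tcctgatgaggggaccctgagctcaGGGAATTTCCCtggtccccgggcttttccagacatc
Ifnb1, NF-kB match, chr4:88522876-88522935, minus strand: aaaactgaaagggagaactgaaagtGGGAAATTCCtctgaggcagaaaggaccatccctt
Dusp5, 2 serum response element matches, chr19:53529038-53529107, plus strand: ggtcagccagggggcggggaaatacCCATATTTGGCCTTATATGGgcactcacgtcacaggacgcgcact
Cxcl10, ISRE match and then 2 NF-kB matches, chr5:92348958-92349127, minus strand: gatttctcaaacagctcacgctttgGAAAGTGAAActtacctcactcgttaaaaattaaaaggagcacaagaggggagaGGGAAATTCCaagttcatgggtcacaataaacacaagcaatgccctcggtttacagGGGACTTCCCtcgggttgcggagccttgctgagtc
Ifit3, 2 ISRE matches, chr19:34583348-34583441, plus strand: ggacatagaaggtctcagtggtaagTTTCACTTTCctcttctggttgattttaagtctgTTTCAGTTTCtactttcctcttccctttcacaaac

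Values are the deposited log2 RMA values, on which a step of 1 is a 2-fold change. Of 18193 named genes, 12540 passed a filter on low values and are the genes described. The brightest of 27 bacterial control probe sets set the background of each array, which was 2.96, 3.10, 3.21 and 3.17 on the labelled-knockout arrays in order of time. A run of 4 values always gives those at 0, 1, 2 and 4 h. A gene is said to have risen or fallen where it was 2-fold or more from the 0 h array, a rule of size and not a test. The brighter Zc3h12a probe set read 6.73, 7.70, 8.75 and 8.50, a difference from 0 h of 0.97 at 1 h and 2.02 at 2 h. On the wild-type arrays it read 6.12, 8.02, 8.87 and 8.57. The other Zc3h12a probe set stayed between 3.01 and 3.22 on the labelled-knockout arrays. Since the deleted stretch is not stated in the sources used here, neither probe set tests the genotype, and the arrays are called labelled knockout throughout. Genes were named by their size of change within each time, shape and list, and members of a list named beyond its 4 largest were chosen after their values were seen.

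Against the 0 h array, 332 of the 12540 genes were higher at 1 h (2.65%) and 264 were lower (2.11%). At 2 h 722 were higher (5.76%) and 1503 lower (12%), and at 4 h 973 were higher (7.76%) and 1668 lower (13.3%). The early response was mostly upward in its large changes: 155 genes were 4-fold or more higher at 1 h (1.24%) and 18 were 4-fold or more lower (0.144%). At 2 h these counts were 298 (2.38%) and 247 (1.97%), and at 4 h 446 (3.56%) and 389 (3.1%). The median of all genes lay at -0.07, -0.16 and -0.11 at the 3 LPS times.

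**Figure D1:**
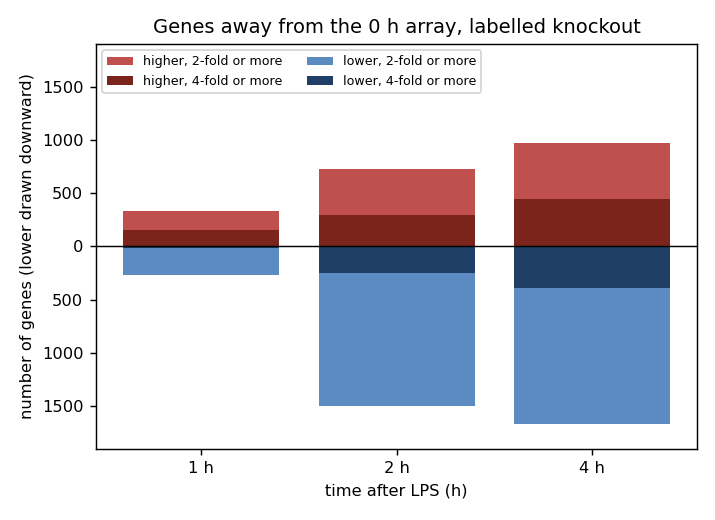
Number of genes higher (drawn upward) or lower (drawn downward) than on the 0 h array at each LPS time in the labelled-knockout arrays, with the darker part of each bar at 4-fold or more. Genes higher went from 332 to 722 to 973 and genes lower from 264 to 1503 to 1668.

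The balance of rises and falls depended on the scaling. Of the genes called, 55.7%, 32.4% and 36.8% were higher at 1, 2 and 4 h. After cyclic loess these shares were 63.7%, 46.2% and 45.7%. With arrays centred on the median level of 11 housekeeping genes, they were 76.4%, 67.7% and 83.2%. This centring added 0.22, 0.44 and 0.72 to every difference at the 3 times, and the median of all genes moved to 0.16, 0.34 and 0.67. The median change of the housekeeping genes had been -0.07, -0.14 and -0.32, and centring turned it to 0.15, 0.30 and 0.40. The shift was thus larger than the change of the genes it was centred on, and it favours rises. With a gene's probe sets averaged the shares were 66.4%, 39.4% and 44.0%. Where a gene had another probe set, it had the same sign for 92.1%, 88.9% and 92.4% of the genes that rose at the 3 times and for 80.5%, 81.1% and 85.3% of those that fell. Rises were also more often past 2-fold on the other probe set, for 61.2%, 53.0% and 56.2% at the 3 times. The shares of falls were 14.8%, 26.1% and 33.2%, so most falls, above all at 1 h, did not reach 2-fold there.

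Every difference shares the single 0 h array. That array had the lowest background of the 4, with 96.3% of the genes above it, against 90.7%, 84.0% and 86.1% later. The difference between 3' and 5' probe sets of Actb, a measure of RNA quality, was 3.11, 2.61, 2.52 and 2.30. These measures moved with time, and their part in the counts was not tested. The 9 hybridisation spike-in probe sets had a range of at most 0.09 over the 4 arrays.

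The shape of each course was read from the times at which a gene held at least 50% of its largest rise or fall. Of the 3486 genes that responded at any time (27.8% of all), 1183 rose, 2282 fell and 21 passed 2-fold in both directions. Most rising genes peaked late: 116 peaked at 1 h, 325 at 2 h and 742 at 4 h. Troughs did so too, with 105 at 1 h, 929 at 2 h and 1248 at 4 h.

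Some rises were brief. Only at 1 h were 37 genes up by this rule, and 65 were up at 2 h alone. Another 83 held their rise from 1 h through 2 h and kept less than 50% of it at 4 h. A sustained rise from 1 h through 4 h was found for 202 genes, whose median differences were 1.92, 2.38 and 2.06. A rise at 2 and 4 h was found for 414 genes and a rise at 4 h alone for 376, an order that turned to 294 and 523 when a time had to hold 67% of the largest change. Among falls, 1162 genes were down at 2 and 4 h, 463 at 4 h alone and 272 from 1 h through 4 h. A further 98 were down at 1 and 2 h, and 244 were down at 2 h alone, a dip with less than 50% of it left at 4 h. These classes carry the 50% rule with them, and their sizes change with it as the closing section gives. A gene can be past 2-fold at a time that its class leaves out. Isg20, classed as up at 4 h alone, had differences of 1.15, 2.89 and 6.23.

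**Figure D2:**
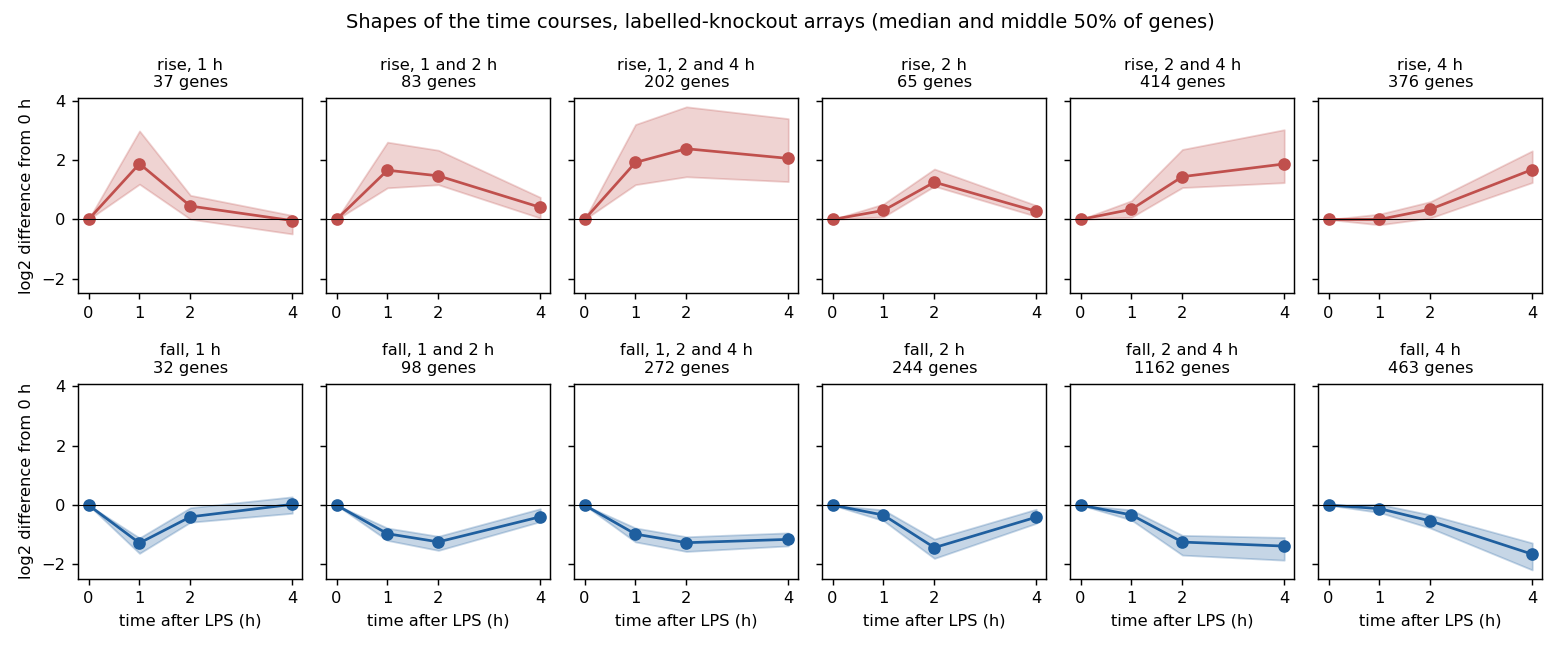
Median log2 difference from 0 h (points and line) and the middle 50% of genes (band) for the 6 main shapes of rise and of fall in the labelled-knockout arrays, against time in h. Genes up from 1 h through 4 h had medians of 1.92, 2.38 and 2.06, and genes up at 4 h alone reached 1.68.

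Immediate early transcription factors made up 10 of the 37 genes up at 1 h alone. Of 27 measured, 18 had risen at 1 h, 11 at 2 h and 5 at 4 h, and 5 were lower at 2 h and again 5 at 4 h. Their median difference went from 1.68 to 0.59 to -0.03, and the last turned to 0.18 after cyclic loess and 0.69 with housekeeping centring. Egr1, a zinc finger factor that serum and stress induce, read 6.85, 12.72, 9.18 and 6.57. It was 58.7-fold up at 1 h and back near its start at 4 h. Nr4a1, an orphan nuclear receptor, read 3.42, 8.46, 3.89 and 3.38, and its rise was over by 2 h. The growth regulator Myc read 4.56, 8.06, 4.38 and 3.98 and was also back by 2 h.

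Btg2, an antiproliferative cofactor, read 4.16, 9.06, 5.94 and 4.29. Ppp1r15a, the phosphatase subunit that restores translation after stress, read 4.74, 10.14, 7.08 and 4.96. Trib1, a pseudokinase, read 3.55, 7.38, 4.15 and 3.33. All 3 peaked on the 1 h array and were within 2-fold of 0 h on the 4 h array. Members of the AP-1 family did not move together. Fos read 9.03, 11.25, 7.54 and 7.35, a rise and then a fall below its start, though with housekeeping centring the difference of -1.68 at 4 h became -0.96. Jun read 10.07, 10.04, 5.39 and 7.35 and was 4.68 lower at 2 h. Its other probe set read 7.08 at 0 h, 4.01 at 2 h and 4.99 at 4 h and fell too. Junb read 4.06, 8.13, 6.63 and 5.82, with 1.76 left of its rise at 4 h.

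Not every immediate early gene was low before LPS. Egr2, which carries a serum response element match, read 11.07, 12.52, 11.52 and 10.25, and Atf3, a stress-induced repressor, read 10.81, 11.16, 10.99 and 11.19 and never passed 2-fold. Nr4a3 stood apart from Nr4a1 with 3.66, 6.37, 9.66 and 8.96, highest at 2 h. The dual specificity phosphatases, which switch off MAP kinases, had 5 of 12 members up at 1 h, 7 at 2 h and 3 at 4 h. Dusp1 read 11.07, 13.32, 12.07 and 10.92 and Dusp5 read 4.26, 9.09, 7.53 and 4.78. Both lost their rise by 4 h. Dusp16 read 5.67, 7.69, 8.36 and 8.50 and kept it. A serum response element match was rare in every class. It stood in 1 of 27 genes up at 1 h alone, 3 of 63 up at 1 and 2 h and 5 of 167 up from 1 h through 4 h. For the immediate early list the count was 2 of 20, and of all genes kept with a RefSeq promoter 1.39% had one.

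Most inflammatory cytokines were up within 1 h. Of 21 measured, 15 were up at 1 h, 18 at 2 h and 15 at 4 h, none was down, and the median differences were 2.77, 3.54 and 3.30 against -0.07, -0.16 and -0.11 for all genes. Il6, an acute-phase cytokine and the best known Regnase-1 target, read 3.42, 11.50, 12.52 and 12.49. It was 270-fold higher at 1 h and 547-fold higher at 2 h, and it stayed there at 4 h. Il1b, which encodes pro-IL-1 beta, read 4.23, 12.80, 13.23 and 12.91, and its rise of 8.57 was the largest of any gene at 1 h. Tnf read 5.48, 12.62, 12.30 and 11.64, highest at 1 h and then lower at each time. Tnfsf9, the ligand of 4-1BB, read 3.91, 12.18, 11.36 and 9.54 and lost more of its rise.

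A group of 4 cytokines peaked at 2 h and lost most of the rise by 4 h. Lif, of the IL-6 family, read 3.27, 6.92, 9.22 and 5.07. Il23a, the subunit particular to IL-23, read 2.96, 5.73, 6.30 and 2.80 and was no longer above background at 4 h. Osm and Clcf1, both of the IL-6 family, belonged to the same group. Ifnb1, the interferon that opens the second wave, read 2.88, 6.79, 4.24 and 2.92, above background on the 1 and 2 h arrays and not on the others. Its rise at 1 h was at least 3.83. Il10, the anti-inflammatory cytokine, read 3.26, 4.37, 6.90 and 4.80, a narrow peak at 2 h.

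Other cytokines came up late. Il12b, the p40 subunit of IL-12 and IL-23, was not above background at 0 h and read 4.00, 6.98 and 7.09 afterwards, a rise of at least 4.13 at 4 h. A dimmer Il12b probe set read 3.02, 3.47, 4.76 and 5.43. Il12a, the p35 subunit, read 3.05, 3.21, 4.82 and 7.39, and Il18, the inflammasome-processed cytokine, read 7.72, 7.92, 8.66 and 11.02. Il15 read 4.91, 4.78, 8.17 and 10.03, the timing of the interferon wave. Ebi3 and Csf3 were the 2 members that never passed 2-fold. Ifng, not in the list and chosen after its values were seen, was not above background until 2 h, read 3.22 there and 7.82 at 4 h, a rise of at least 4.86. The gene is best known as a product of T and NK cells. Of 8 T and NK cell markers, 3 were above background on all 4 arrays and 3 were at background on all 4. The medians of that list were 3.04 to 3.13. Cd3e, a T cell marker with the highest value of the list, read 5.89, 5.64, 5.53 and 6.35. The cell source of Ifng was not tested.

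**Figure D3:**
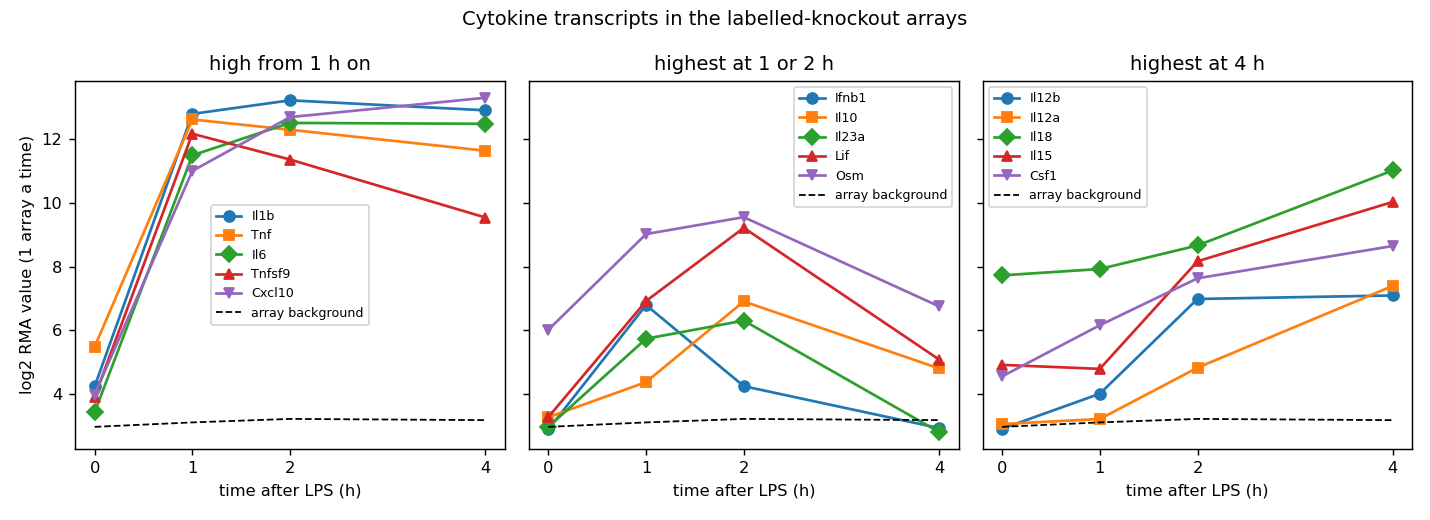
Log2 values of 15 cytokine and chemokine transcripts on the 4 labelled-knockout arrays against time in h, 1 array a point, with the array background dashed. Il6 went from 3.42 to 12.52, Lif peaked at 9.22 at 2 h, and Il18 reached 11.02 at 4 h.

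Chemokines followed the same division. Of 11 CXC chemokines, 4 had risen at 1 h and 7 at 2 h and at 4 h. Cxcl10, which draws T cells, read 3.98, 11.01, 12.70 and 13.31, and its 644-fold rise was the largest of any gene at 4 h. Cxcl2, a neutrophil attractant, read 6.24, 12.48, 12.31 and 11.66, and its relative Cxcl3 was not above background at 0 h and then read 5.16, 9.55 and 9.04. Cxcl1 tracked Cxcl2 with 6.68, 12.99, 13.03 and 12.03. Cxcl11, an interferon-induced ligand of CXCR3, read 3.39, 3.32, 6.97 and 10.50 and had not moved at 1 h. Of 13 CC chemokines, 6, 6 and 8 were up at the 3 times. Ccl5 read 8.47, 11.86, 13.25 and 13.67, Ccl4 read 5.07, 11.63, 12.18 and 11.70, and Ccl12 rose by at least 4.88 at 4 h. Ccl6, Ccl8, Ccl20 and Ccl24 never passed 2-fold. Neither did Ccl9 by its brightest probe set, which lay near the top of the scale at 12.66 to 13.34, but its dimmer one rose, from 7.77 at 0 h to 9.07 at 1 h and 10.37 at 4 h.

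NF-kB subunits and their feedback regulators rose early and stayed. Of 18 measured, 15, 16 and 15 were up and none was down, and the medians were 2.23, 2.00 and 2.03. Nfkbia, the inhibitor that NF-kB itself induces, read 10.98, 13.34, 13.18 and 13.02. Tnfaip3, the ubiquitin-editing enzyme A20, read 6.96, 11.66, 11.39 and 10.97. Rel read 4.63, 8.86, 9.13 and 8.06, and Nfkb2 read 5.51, 8.03, 9.55 and 9.81. In all, 14 of the 18 were up from 1 h through 4 h. Nfkbid had lost most of its rise by 4 h, Irak3 rose from 2 h on, and Traf2 and Cyld stayed within 2-fold. Of the genes sustained from 1 h, 167 had a RefSeq promoter and 27 of them (16.2%) held an NF-kB match, against 5.48% of 10136 genes kept that had a promoter. For the NF-kB list itself the count was 9 of 16. The match was not particular to sustained genes. It stood in 14.9% of 47 genes up at 2 h alone and in 11.1% of 63 up at 1 and 2 h. Shares were 7.41% of 27 genes up at 1 h alone, 7.29% of 329 up at 2 and 4 h and 4.26% of 305 up at 4 h alone. The Il6 match shown above begins 44 bases before the start.

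Other feedback genes were among the sustained risers. Socs3, the inhibitor of IL-6 signalling, read 9.29, 12.09, 12.26 and 11.95, and Cish, of the same family, read 3.72, 7.88, 9.34 and 8.23. Zfp36, which encodes the AU-rich element binding protein TTP, read 7.66, 11.58, 9.85 and 9.63. Zc3h12c, a close relative of Zc3h12a, read 5.99, 8.73, 9.07 and 8.75. Zc3h12d, another relative, went the other way with 5.99, 5.09, 3.45 and 5.67, and Zfp36l1 read 10.26, 11.04, 9.84 and 7.96. Of the 17 CCCH zinc finger and mRNA decay genes measured, 3, 4 and 6 were up and 0, 2 and 2 were down. The Roquin genes Rc3h1 and Rc3h2 and the helicase gene Upf1, which acts with Regnase-1, stayed within 2-fold.

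Of 16 measured genes reported as Regnase-1 targets, 9, 11 and 12 were up at the 3 times and 0, 0 and 2 were down, with medians of 1.70, 3.94 and 3.22. Some of these members were singled out in work on such knockout cells, and the direction of the list is therefore no independent evidence. Ptgs2, the inducible cyclooxygenase, read 5.90, 12.35, 12.85 and 12.54 and Nfkbiz, an inducer of Il6, read 8.42, 12.59, 12.22 and 11.32. Calcr, the calcitonin receptor, was not above background at 0 and 1 h and read 5.19 and 5.91 after that, a rise of at least 2.95 at 4 h. The transferrin receptor gene Tfrc read 11.80, 11.74, 11.45 and 10.68 and Egln3, a hypoxia sensor, read 5.97, 5.87, 5.66 and 4.38. These were the 2 that fell, and with housekeeping centring neither did, at -0.40 for Tfrc and -0.87 for Egln3. That setting added 0.72 to both, and Tfrc is itself one of the housekeeping genes, so the setting cannot decide on the Tfrc fall. Lcn2 and Tnfrsf4 stayed within 2-fold.

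The interferon wave was small at 1 h and covered its whole list by 4 h. Of 37 interferon-stimulated genes, 7 were up and 1 down at 1 h, 35 were up at 2 h and all 37 at 4 h, with medians of 0.06, 2.70 and 4.29. Background shares of risers at these times were 2.65%, 5.76% and 7.76% of all genes. Mx1, a GTPase that blocks influenza virus, read 4.53, 4.22, 11.59 and 12.86. Ifit3 read 3.18, 3.93, 8.23 and 11.40, and Ifit2 read 4.93, 5.73, 11.22 and 12.92. All 3 were within 2-fold of 0 h on the 1 h array and were more than 4-fold up on the 2 h array.

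A few members were early. Ifit1, which binds viral RNA caps, read 6.15, 11.52, 13.12 and 13.43. Rsad2, the antiviral enzyme viperin, read 9.05, 12.14, 13.53 and 13.72, and Ifih1, the RNA sensor MDA5, read 8.46, 11.60, 12.85 and 12.77. With Oasl1 at 4.79, 9.20, 11.49 and 11.57 these were the 4 that held at least 50% of their largest rise at all 3 times. Cmpk2, Rtp4 and Isg20 were the other members past 2-fold at 1 h. Bst2, which tethers virions, was late with 5.41, 5.32, 5.30 and 8.87, and Sp100 was late too with 4.53, 4.12, 4.89 and 7.60. Both were named after their values were seen, as the 2 members not yet up at 2 h.

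Interferon-inducible GTPases, which attack vacuoles that hold pathogens, had 2 of 9 up at 1 h and 9 of 9 at 2 and 4 h. Iigp1 read 7.42, 8.17, 10.71 and 12.07, and Irgm1 read 6.77, 7.01, 9.83 and 10.66. Antigen processing for MHC class I followed later. Of 12 genes, 0, 1 and 7 were up. Tap1, the peptide transporter, read 7.23, 7.27, 8.72 and 10.47, and Psmb9, an immunoproteasome subunit, read 6.79, 6.30, 6.86 and 8.79. The heavy chain genes H2-K1 and H2-D1 and B2m were within 0.13 of 0 h at every time, at levels from 12.40 upward at 0 h. An ISRE match stood in 10 of 26 promoters of the interferon-stimulated list (38.5%) and in 7 of 7 of the GTPases. Of all genes kept with a promoter, 3.30% had one. The match was not particular to 1 class of rise. Shares were 9.51% of 305 genes up at 4 h alone, 6.69% of 329 up at 2 and 4 h and 7.41% of 27 up at 1 h alone. They were 4.76% of 63 genes up at 1 and 2 h, 4.26% of 47 up at 2 h alone and 2.99% of 167 up from 1 h through 4 h.

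Among the regulators of this wave, Irf1 read 8.31, 10.64, 11.02 and 11.37 and was up from 1 h. Irf7, the factor that amplifies interferon, read 4.99, 5.05, 6.89 and 9.59. Irf8, needed for macrophage lineage, dipped and then rose with 7.68, 6.54, 6.41 and 8.94, though the dip was lost with housekeeping centring. Of 19 Toll-like receptor and adaptor genes, 3, 4 and 6 were up. Tlr2 read 8.08, 11.12, 12.10 and 11.90, whereas Tlr3 was up at 4 h alone with 7.29, 7.10, 7.51 and 10.67. Tlr13 fell with 9.04, 8.85, 7.34 and 6.11. Tlr4, the LPS receptor, read 9.06, 8.83, 7.79 and 8.96, a dip of 1.27 at 2 h that fell short of 2-fold with housekeeping centring. Costimulatory genes also rose, with Cd40 at 6.88, 9.50, 10.82 and 12.43, and the MHC class II genes H2-Aa, H2-Ab1 and Cd74 stayed within 0.20 of their 0 h values.

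**Figure D4:**
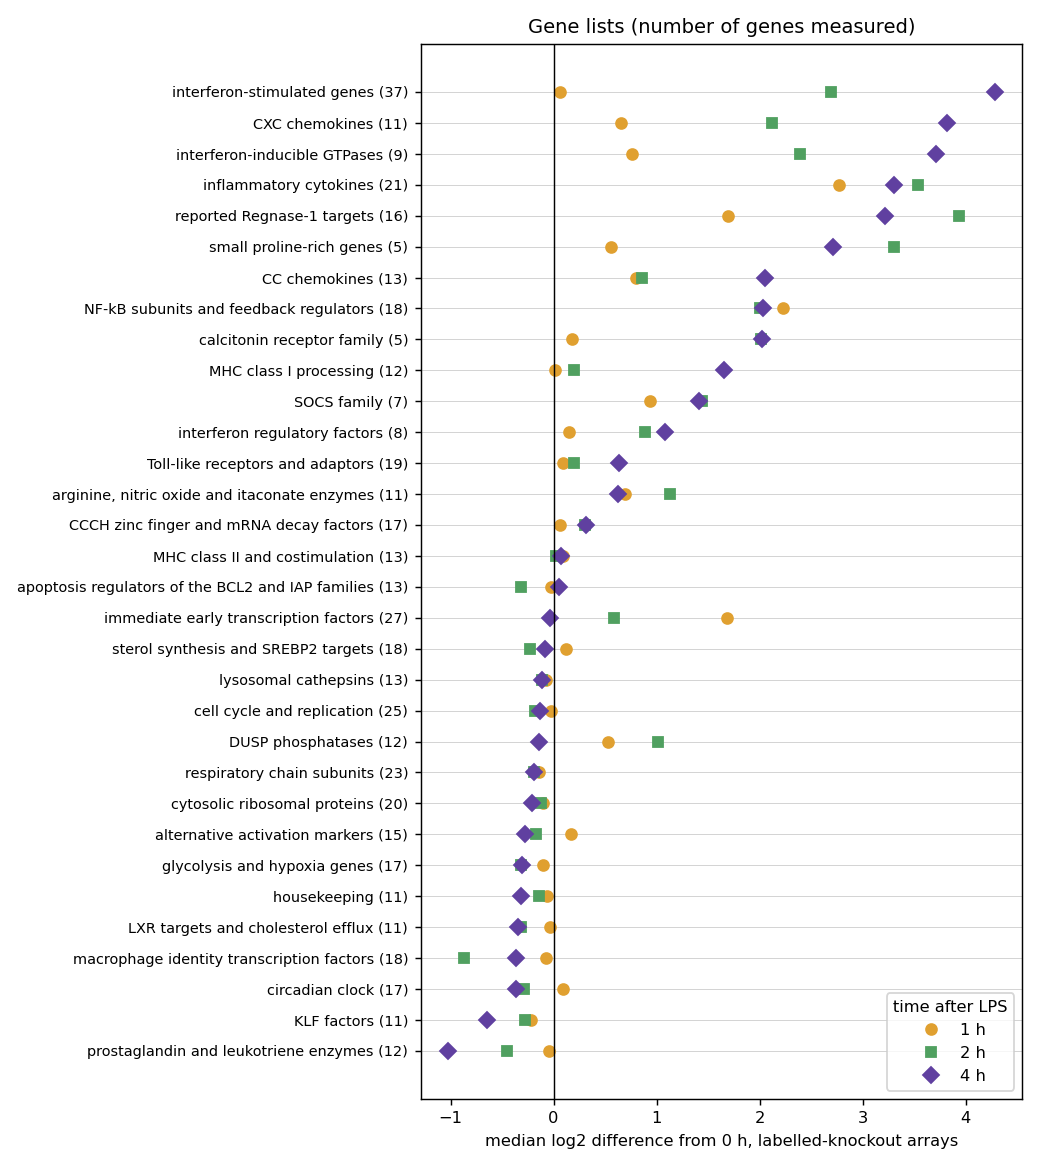
Median log2 difference from 0 h at 1, 2 and 4 h for the 32 gene lists in the labelled-knockout arrays, sorted by the 4 h value, with the number of genes measured in brackets. Interferon-stimulated genes went from 0.06 to 4.29 and immediate early factors from 1.68 to -0.03, the last turning to 0.18 after cyclic loess and, as did 14 lists at 4 h, positive with housekeeping centring.

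Enzymes of inflammation turned on at different times. Acod1, which makes itaconate, read 10.01, 13.10, 13.32 and 13.28 and was up from 1 h. Nos2, the inducible nitric oxide synthase, was not above background through 2 h and read 7.63 at 4 h, a rise of at least 4.67. Slc7a2, which imports arginine, read 9.03, 10.04, 11.69 and 12.23, and Hdc, the histamine-forming enzyme, read 4.43, 4.85, 6.66 and 8.88. Arg1, which competes for the same arginine, read 11.59, 11.70, 10.96 and 9.75. Of 12 prostaglandin and leukotriene enzymes, 3 were up at 4 h and 7 were down. The 3 were Ptgs2, Ptges (5.43, 7.60, 8.75 and 9.82) and Pla2g4a (7.38, 7.60, 8.63 and 9.79), the steps of prostaglandin E2 synthesis. Among the 7 down were the leukotriene genes Alox5, Alox5ap, Lta4h and Ltc4s, with Alox5 at 5.75, 5.70, 5.25 and 4.17. The count of falls was 5 after cyclic loess and 3 with housekeeping centring.

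By their brightest probe sets all 23 respiratory chain subunits and all 13 lysosomal cathepsins stayed within 2-fold at every time, and so did 19 of 20 cytosolic ribosomal protein genes. Dimmer probe sets did not always do so, and for Ctsc, which encodes cathepsin C, 2 of them rose by 3.95 and 3.37 at 1 h. The exception was Rpl14, at 6.13, 5.66, 4.92 and 5.02, whose fall was lost after cyclic loess. In lipid metabolism Scd2, a desaturase that LXR induces, read 8.78, 8.56, 7.22 and 5.78, Abcg1, a cholesterol exporter, read 10.80, 10.21, 8.39 and 9.10, and Dhcr7, of sterol synthesis, read 9.91, 9.43, 8.40 and 6.59. Of 18 sterol synthesis genes 2 were up and 3 down at 4 h, and of 11 LXR genes 0 were up and 3 down. After cyclic loess the sterol counts were 2 and 1, and with housekeeping centring 5 and 1, with a positive median under both. With housekeeping centring LXR genes had 1 fall and a positive median, and Abcg1 fell short of 2-fold at 4 h. In glycolysis Hk2 read 8.86, 9.39, 10.57 and 10.53 and was the 1 riser of 17 glycolysis and hypoxia genes at 2 and 4 h, when 2 and 4 of them fell. With housekeeping centring 4 and 5 rose and 1 and 1 fell, but that setting added 0.44 and 0.72 to each difference. The housekeeping genes also overlap with this list. Pfkfb3, which sets the pace of glycolysis, dipped with 8.40, 7.59, 6.03 and 9.30.

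The largest falls built up over 2 to 4 h. Thbd, the anticoagulant receptor thrombomodulin, read 9.64, 8.03, 4.97 and 3.18, and its fall of 6.45 was the largest of any gene. Fbxo32, a ubiquitin ligase subunit, read 7.77, 7.06, 3.27 and 2.75, the last not above background, a fall of at least 4.60. Sesn1, a stress-induced inhibitor of mTORC1, read 8.38, 7.26, 3.64 and 3.94, and Ypel2 read 11.91, 11.11, 8.07 and 6.87. Each was still within 1.61 of its start at 1 h and far below it at 2 h. Cxcr4, the chemokine receptor for CXCL12, read 12.14, 11.99, 10.25 and 7.78, and Zdhhc14, a palmitoyltransferase, read 8.30, 8.06, 7.44 and 3.36, with most of the fall after 2 h. Mxd4, a partner of MAX that opposes MYC, read 8.06, 7.25, 4.22 and 3.11, a fall of at least 4.89.

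Some genes dipped and recovered. Hhex, a homeobox factor, read 8.42, 6.55 and 3.63 through 2 h, a fall of 4.79, and was 0.42 below its start at 4 h. Tifab, an inhibitor of TRAF6 signalling, read 7.34, 5.48, 2.53 and 5.98, a dip of at least 4.13. Txnip, the thioredoxin-binding arrestin, read 9.57, 7.28, 7.12 and 8.86. Tsc22d3, the glucocorticoid-induced leucine zipper GILZ, fell without recovery at 7.65, 5.08, 3.91 and 3.24, and a second of its 4 probe sets read 5.26, 4.54, 3.49 and 3.22. Its other probe sets lay near background.

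Of 18 macrophage transcription factors, 3, 7 and 5 were down and 2, 1 and 2 up. The median was -0.87 at 2 h, and -0.37 at 4 h, where it turned to 0.36 with housekeeping centring. Cebpa, a driver of myeloid identity, read 9.67, 8.50, 6.69 and 6.34, while its relative Cebpb read 9.03, 10.02, 9.96 and 10.11. Spi1, which encodes PU.1, stayed within 2-fold at 8.29, 8.44, 8.26 and 8.70. Pparg, the lipid-sensing nuclear receptor of alternative activation, read 7.05, 7.46, 4.60 and 3.09, the last not above background. Among circadian clock genes 0 of 17 rose, and 1, 4 and 6 fell. Dbp, a clock output factor, read 6.43, 5.35, 2.50 and 2.76, a fall of at least 3.22 at 2 h, and Nr1d2, which encodes REV-ERB beta, read 8.05, 7.62, 6.52 and 5.66. With housekeeping centring the clock falls were 0, 3 and 2, and the clock median turned positive at 2 and 4 h.

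Zinc finger genes named Zfp with a number, a group chosen after its values were seen, gave many of the earliest falls. Of 274, 82 fell at some time (29.9%, against 18.2% of all genes) and 13 rose (4.74%, against 9.43%). At 1 h 54 of them were down (19.7%, against 2.11% of all genes). At 2 h 54 were down (19.7%, against 12%) and at 4 h 42 (15.3%, against 13.3%), the last near the share of all genes. They made up 12 of the 32 genes down at 1 h alone (37.5%) and 39 of the 272 down from 1 h through 4 h (14.3%). Among all genes kept their share was 2.19%. Zfp39 read 5.77, 3.03, 5.03 and 5.48 and was not above background at 1 h, and Zfp763 read 7.42, 4.63, 5.59 and 5.68. Snhg10, a small nucleolar RNA host gene, fell most at 1 h, with 8.57, 5.35, 6.16 and 7.07, but by its other probe sets it read 6.23, 5.39, 5.44 and 5.77 or lay near background.

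Growth and survival genes split. Ccnd2, cyclin D2, read 3.89, 3.72, 7.79 and 10.46, whereas Ccnd1 read 6.55, 6.36, 4.73 and 4.74. Cdkn1a, the p21 inhibitor, read 9.80, 11.93, 12.10 and 11.64. Mki67, a proliferation marker, rose with 4.42, 8.78, 8.39 and 7.63, but Top2a, another such marker, stayed within 2-fold at 3.90, 4.08, 4.04 and 3.32. Of 25 cell cycle genes, 2, 3 and 4 were up and 0, 1 and 6 down. Cflar, which blocks caspase-8, read 8.69, 10.99, 11.29 and 11.34, and Bcl2 read 7.19, 6.95, 5.65 and 4.29. Bcl2l11, the pro-death BIM, rose and then fell with 9.62, 11.38, 10.13 and 7.70.

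Lcn2 and Saa3, usually induced by LPS, were already high at 0 h and stayed there. Lcn2, the iron-scavenging lipocalin, read 11.02, 10.84, 10.91 and 11.27, and Saa3, an acute-phase apolipoprotein, read 13.93, 13.80, 13.86 and 13.93, close to the top of the scale. The alternative activation genes Retnla (13.28, 13.20, 13.11 and 13.09) and Chil3 were as steady. The alternative activation list as a whole was not. Of 15 measured, 0, 1 and 3 were up and 0, 3 and 5 down at 1, 2 and 4 h. Among all genes 7.76% were up and 13.3% down at 4 h. With housekeeping centring the list had 4 up and 3 down at 4 h.

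Set beside the wild-type arrays, most of the course was shared. Of genes that rose in the labelled knockout, 83.1%, 79.9% and 85.7% also rose in wild type at the same time, which were 82.4%, 80.3% and 82.4% of the wild-type risers. Falls overlapped less, with 64.4%, 64.3% and 75.4% of the labelled-knockout falls shared at the 3 times. These were 40.9%, 72.6% and 74.6% of the wild-type falls. At none of the 3 times did a gene pass 2-fold in opposite directions. The wild-type arrays had 335 (2.67%), 719 (5.73%) and 1012 (8.07%) risers and 416 (3.32%), 1330 (10.6%) and 1686 (13.4%) falls. Of the genes sustained from 1 h, 80.2% had the same shape in wild type, and of the dips at 2 h, 30.3% did. No difference between the genotypes in a response at a time was tested, since each rests on 4 single arrays.

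Il6 was ahead of wild type at 1 h. Its wild-type signal was not above background at 0 h and then read 7.97, 10.06 and 11.49, against 11.50, 12.52 and 12.49, so the gap was widest at 1 h. Il1b and Tnf did not differ in this way, with wild-type values of 3.99, 12.96, 13.28 and 13.19 and of 5.70, 12.56, 12.51 and 12.01. Il10 went the other way at 1 h, with 7.21 in wild type against 4.37, while the later values were 7.53 and 4.89 against 6.90 and 4.80. Il12b was brighter in wild type, with 8.30 against 6.98 at 2 h and 8.62 against 7.09 at 4 h. Ccl22, a ligand of CCR4, read 3.67, 3.91, 4.53 and 5.72 in the labelled knockout, below the wild-type 2.94, 3.80, 6.84 and 7.96 from 2 h on.

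Of 5 measured small proline-rich genes, a family known from the epidermal barrier, 2, 4 and 4 rose in the labelled knockout and Sprr1a did not. In wild type no member passed 2-fold, and the difference was not tested. Sprr2d read 3.33, 9.49, 11.88 and 11.79, a 376-fold rise at 2 h, where wild-type arrays gave 2.77, 2.97, 3.48 and 3.12. In the labelled knockout Sprr2f read 3.30, 7.83, 10.92 and 10.76, and Sprr2h and Sprr2k rose to 6.57 and 6.07, with all 3 at 3.36 or below in wild type. These genes are closely related copies, so probes may not tell them apart. Calcr was not above background on any wild-type array. Ifng reached 4.06 at 4 h in wild type against 7.82. Adm, which encodes adrenomedullin, read 4.15, 9.99, 10.62 and 10.63 against 4.23, 9.39, 9.60 and 8.68.

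Other differences, named after their values were seen, were those of Layn, Plet1 and Penk. Layn, a hyaluronan receptor gene, read 5.53, 7.15, 9.41 and 9.22 against 5.08, 5.08, 5.63 and 5.04. Plet1 read 3.07, 5.19, 9.95 and 9.68 against 2.78, 3.67, 6.36 and 6.05, and Penk, the enkephalin precursor, reached 8.29 against 4.63 at 4 h. Shisa3 rose in wild type alone, to 7.10 at 4 h. Lcn2 and Olr1 were higher at 0 h in the labelled knockout. Lcn2 went from 4.69 to 10.82 in wild type, and Olr1, an oxidised LDL receptor, from 7.05 to 11.34, against 10.76 and 12.07 in the labelled knockout. Id3, an inhibitor of DNA binding, read 5.40, 8.17, 5.28 and 5.09 in wild type against 5.44, 6.25, 3.41 and 2.71.

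**Figure D5:**
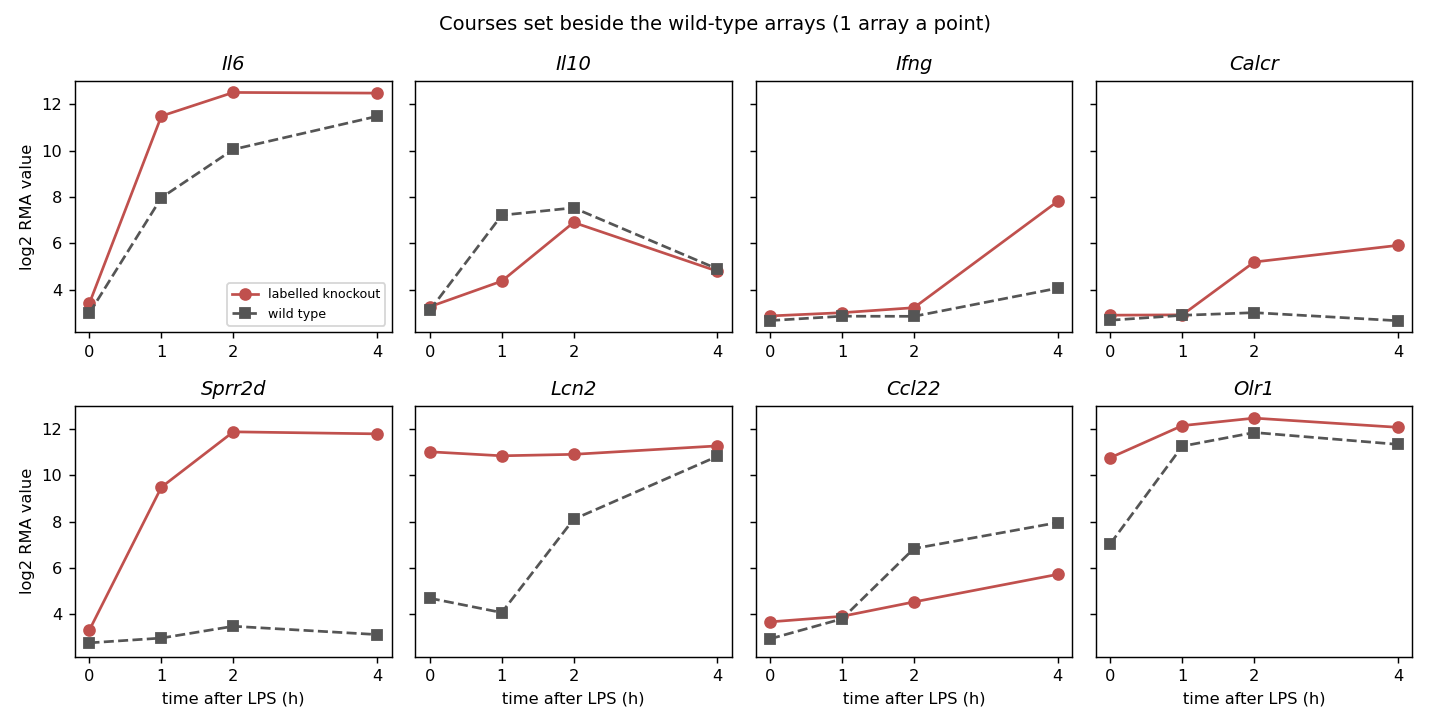
Log2 values against time in h for 8 genes on the labelled-knockout arrays (solid) and the wild-type arrays (dashed), 1 array a point. Il6 stood at 11.50 against 7.97 at 1 h, Il10 at 4.37 against 7.21, and Lcn2 started at 11.02 against 4.69.

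Markers of the expected cells were present. All 12 measured macrophage markers were above background on the 4 arrays, among them Adgre1 (11.71, 11.60, 11.50 and 11.47) and Csf1r (13.33, 13.29, 13.05 and 12.64). Of other cells, 3 of 9 B cell, 3 of 8 T and NK cell, 4 of 8 neutrophil, 3 of 10 mast cell and eosinophil, 7 of 12 stromal and 3 of 8 dendritic cell markers were above background on all 4. The median level of these lists, in any order of time, ranged from 2.99 to 3.20 for B cells, from 3.04 to 3.13 for T and NK cells, from 3.12 to 3.39 for neutrophils and from 4.33 to 4.90 for stromal cells. Ighm read 8.92, 9.45, 8.72 and 9.43, S100a8 read 10.47, 10.70, 11.39 and 11.85, and Ngp, a granule protein of neutrophils, read 3.40, 3.84, 3.69 and 4.55. Of 4 neutrophil markers that passed the filter, 0, 1 and 3 were past 2-fold up at the 3 times, with a median of 1.20 at 4 h against -0.11 for all genes. In bulk RNA, fewer cells of a type and less RNA per cell cannot be told apart, and the part of other cells in the responses was not tested.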

How the data were processed

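RNA extracted with Trizol was made into biotin-labelled cRNA with a NuGEN Ovation kit, per the labels' protocols, and hybridised to Affymetrix arrays. The deposited log2 values were made by the authors with RMA, per the submitters' processing notes, with the version not given in the sources used here. Of 45101 probe sets, 34958 carry 1 symbol in the platform annotation, 932 carry several and 9211 carry none, and only the first kind was used. A gene was read from the probe set that was brightest on average and kept where its second-highest array reached the table median of 3.16. Differences from 0 h were taken on the log2 scale, and 2-fold was the limit for a rise or fall. Values not above an array's background give only a bound, written as "at least". With 1 array a time no test was run and precision is unknown. The members and lists were chosen with earlier results of these data known, and the serum response element search and the Dusp5 window were added after seeing the data. Genes named were the 8 largest rises and 6 largest falls at each time, the 4 largest of each shape with 5 genes or more and of each list, Zc3h12a, and Il6, Il12b, Tnf, Il1b, Il10, Calcr, Nfkbia, Sprr2d and Sprr2f, of which the text gives a selection. Alternatives covered scaling, filter, probe set choice, background, fold and the 50% share. The scripts were tested on simulated data. Python 3.11.15 with pandas 2.3.3, and R 4.3.3 with limma 3.58.1 for cyclic loess, were used.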

Additional observations from a re-analysis of the deposited data

Results flagged for a closer look

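For Ngp and Ackr3 the values of the labelled-knockout arrays moved against those of the wild-type arrays, but the wild-type values lay mostly at background, so they give no direction, and neither difference was tested. Ngp, a neutrophil granule protein gene, rose by 1.15 at 4 h, with 3.40, 3.84, 3.69 and 4.55, while wild type read 3.29, 3.11, 3.15 and 2.83, with the 0 h value the only one above background. Ackr3, the scavenging receptor of CXCL12, read 5.66, 4.71, 3.01 and 3.01. Its listed difference at 2 h was -2.64, but the 2 and 4 h values were not above background, so it fell by at least 2.45, and no wild-type array was above background for it.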

How the results depend on the processing

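Each value rests on 1 array a time, so no array could be left out and no error is known. No paired analysis was possible because the LPS course has 1 array a time, carries no replicate numbers and gives values with no test. A fit of genotype and time over the 8 arrays, which asks about genotype, was not run. A median counted as moved past 0.58 (log2) and a count past 1.5 times. Of the main values under an alternative, 188 kept to that and 70 did not. The cause was not tested. With housekeeping centring 135 genes were lower at 1 h, 1418 higher and 677 lower at 2 h, and 2983 and 604 at 4 h. Up at 1 h alone were then 23, at all times 396, at 2 h alone 40, at 2 and 4 h 1727 and at 4 h alone 982, and down at all times 57, at 2 and 4 h 380 and at 4 h alone 227. The 4 h medians became 4.02 for cytokines, 0.69 for immediate early factors, 2.75 for the NF-kB list and 5.01 for interferon-stimulated genes. With probe sets averaged 149, 853 and 1013 genes were lower. Then 32 were up at 2 h alone, 18 down at 1 h alone, 59 at 1 and 2 h, 157 at all times, 125 at 2 h alone, 723 at 2 and 4 h and 278 at 4 h alone, and the cytokine median at 1 h was 2.09. Cyclic loess left 162 dips at 2 h. The 75th percentile filter left 42 up at 2 h alone and 178 down at all times. Leaving out probe sets shared by several transcripts, the NF-kB median at 1 h was 1.40, and Snhg10 at 1 h (0.22) and Tsc22d3 at 4 h (0.10) turned sign. At 1.5-fold, 611, 1312 and 1570 genes were higher and 939, 3173 and 3098 lower. At 4-fold these were 155, 298 and 446, and 18, 247 and 389. The 4-fold shapes were, up, 17 at 1 h alone, 36 at 1 and 2 h, 124 at all times, 9 at 2 h alone, 203 at 2 and 4 h and 141 at 4 h alone, and, down in that order, 4, 8, 30, 41, 293 and 137. At a 33% share 20 were up at 1 h alone, 351 at all times and 30 at 2 h alone, and 17 down at 1 h alone, 621 at all times, 98 at 2 h alone and 222 at 4 h alone. At 67% these were 56, 108 and 119, and 57, 89, 446 and 736. No filter, or values raised to background, moved none of the main values. Among single genes and other values 3885 were the same, 527 moved and 2 reversed.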

Other observations

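Several late risers lie outside the lists and were chosen after their values were seen. Slco3a1, an organic anion transporter gene, read 5.30, 6.05, 7.07 and 10.78. Slamf1, a receptor of phagocytes and lymphocytes, read 3.73, 3.55, 5.25 and 9.06, and Tnfsf10, which encodes the death ligand TRAIL, read 4.25, 4.13, 5.32 and 9.50. Lipg, endothelial lipase, read 3.07, 3.59, 4.88 and 8.06. Each had most of its rise between the 2 h and the 4 h array.

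A further 21 genes passed 2-fold in both directions. Tcim read 8.41, 11.17, 8.17 and 5.04, and Vegfa, the vascular growth factor, read 6.12, 7.33, 4.97 and 3.92, both up first and down later. Gm4951 read 6.72, 5.52, 9.22 and 10.92 and Trim34a read 8.51, 7.31, 9.28 and 10.94, both down first and up later. Arid5a, which encodes a protein that stabilises Il6 mRNA, was 1 of 6 genes that were up at 1 and 4 h and lower between, with 3.43, 5.40, 4.86 and 6.49. Ptger2, a receptor for prostaglandin E2, had the reverse course, with 7.28, 5.67, 7.90 and 5.04.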
